A study of Mus musculus with 3 samples.

Results

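Transforming growth factor-beta (TGF-β) signaling was read from 10 genes of sorted adult lung endothelial cells (ECs), of 24346 gene symbols in the deposited table. They are the 3 ligand genes *Tgfb1*, *Tgfb2* and *Tgfb3*, the latent TGF-β binding protein gene *Ltbp4*, the 3 receptor genes *Tgfbr1*, *Tgfbr2* and *Tgfbr3*, and the Smad genes *Smad2*, *Smad3* and *Smad4*. They were chosen by name, as the rows of the table that carry these symbols, and all 10 have a row. The 3 libraries, S38, S44 and S52, form 1 group: ECs freshly isolated from the lungs of wild type C57BL/6J male mice aged 6 to 8 weeks. An antibody to VE-cadherin was injected into the circulation before the lungs were taken, and CD31-positive cells without CD45 and podoplanin were sorted. The labels do not say how many mice gave each library, so the spread given here is between libraries and may be technical. Kidney, heart and liver ECs and earlier stages were left aside, and neither organs nor ages were compared. Values are FPKM (fragments scaled to gene length and to the fragments of the library), so levels of different genes can be set in order. Genes with a mean of 1 FPKM or more are called detected.

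TGF-β is secreted in a latent form. The propeptide stays wrapped around the mature ligand, and latent TGF-β binding proteins tie the complex to the extracellular matrix until integrins, proteases or thrombospondin release it. The free ligand binds the type II receptor, encoded by *Tgfbr2*, which phosphorylates a type I receptor, most often the product of *Tgfbr1* (ALK5). ECs can also use a second type I receptor, ALK1, encoded by *Acvrl1*. ALK5 phosphorylates Smad2 and Smad3, which enter the nucleus with the shared partner Smad4, whereas ALK1 acts through Smad1, Smad5 and Smad9. In the vessel wall the pathway controls EC quiescence, matrix synthesis and the recruitment of mural cells.

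All 10 genes were detected, against 48.3% of the 24346 genes, and all 10 also reached 1 FPKM in every library, against 43.9%. Of the 10, 5 had a mean of at least 10 FPKM, against 25.7% of genes. All 10 markers of the labelled cell type, endothelial, were detected, with medians of 482 (S38), 533 (S44) and 484 (S52) FPKM. Their sums were 6369, 7058 and 6291 FPKM. Markers of other cells were present as well. The 7 platelet markers summed to 1821 (S38), 1468 (S44) and 46.7 (S52) FPKM, the 5 alveolar type 2 markers to 3772, 3170 and 760 FPKM, and the 5 airway markers to 2780, 2316 and 401 FPKM, so S52 stands apart in these lists. In S38 and S44 the alveolar gene *Sftpc* (3333 and 2862 FPKM) and the airway gene *Scgb1a1* (2669 and 2212.5 FPKM) exceeded every endothelial marker. The highest of those was *Cldn5*, at 1486 and 1732 FPKM. *Bpifa1*, of the airway list, was listed at 0 in S52. The 6 mural markers summed to 120, 62.0 and 118 FPKM and the 5 fibroblast markers to 73.2, 57.6 and 40.5 FPKM. Leukocyte markers summed to 14.9, 11.6 and 3.76 FPKM, with *Cd3e* and *Marco* at 0 in S52, and all 4 mesothelial markers were at 0 in S52. In a bulk fraction, fewer cells of a type and less RNA per cell cannot be told apart.

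Promoter sequences are given for the ligand genes *Tgfb1* and *Tgfb2*, which were the farthest apart of the 3 in level. The 250 bases before each RefSeq start site (GRCm38.p6) are shown because they place the most and the least abundant ligand transcript side by side. Capitals mark GC boxes (GGGCGG, either strand), the TATA box (TATAAA) and the CCAAT box (CCAAT, either strand).
*Tgfb1*, chr7:25686752-25687001, plus strand: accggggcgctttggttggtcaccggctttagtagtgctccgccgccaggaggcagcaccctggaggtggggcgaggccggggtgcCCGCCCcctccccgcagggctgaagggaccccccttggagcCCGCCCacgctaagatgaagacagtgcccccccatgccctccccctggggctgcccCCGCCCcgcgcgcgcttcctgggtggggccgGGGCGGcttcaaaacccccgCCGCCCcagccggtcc
*Tgfb2*, chr1:186705990-186706239, minus strand: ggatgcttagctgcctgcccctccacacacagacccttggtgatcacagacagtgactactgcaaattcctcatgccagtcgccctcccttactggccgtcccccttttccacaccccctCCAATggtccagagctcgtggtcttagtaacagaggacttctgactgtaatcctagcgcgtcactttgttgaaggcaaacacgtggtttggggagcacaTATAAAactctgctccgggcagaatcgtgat

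The *Tgfb1* window is 75.2% G and C with 21 CpG dinucleotides, and it holds 5 GC boxes and no TATA box. The *Tgfb2* window is 53.6% G and C with 8 CpG dinucleotides, and it holds no GC box, 1 CCAAT box and 1 TATA box, which begins 31 bases before the start. Over all 32851 RefSeq windows of this length, 32.7% hold a GC box, 33.8% a CCAAT box and 12.4% a TATA box on either strand, and the median window is 52.4% G and C with 6 CpG dinucleotides. The letters of a Smad element (CAGACA, either strand) were found once in the *Tgfb2* window and not in that of *Tgfb1*, with a share of 17.1% over all windows. An AP-1 element (TGANTCA, in 6.75% of windows) and a cyclic AMP element (TGACGTCA, in 1.55%) were found in neither. Windows were found for 6 of the 10 genes, 9 windows in all, since *Ltbp4* has 3 starts and *Tgfbr1* has 2. The windows of *Ltbp4* are 64.4% to 79.2% G and C with 3 to 7 GC boxes, some of them overlapping, and that of *Smad3* is 69.2% with 2 GC boxes. The *Tgfbr2* window is 58.4% G and C with no GC box and 2 CCAAT boxes. Of the *Tgfbr1* windows, 1 is 74.8% G and C with 2 GC boxes and 2 CCAAT boxes. The other is 52.8% with no GC box and no CCAAT box, and it holds the letters of the Smad element once. Among the 9 windows the TATA letters occur in that of *Tgfb2* alone. *Tgfb3*, *Tgfbr3*, *Smad2* and *Smad4* were without a window. These matches are letters in a window. No binding was measured, and a relation of these features to level was not tested.

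Ligand transcripts in adult lung ECs were mostly *Tgfb1*. *Tgfb1*, which encodes the isoform most abundant in blood and tissues, was at 46.8 (S38), 41.6 (S44) and 45.1 (S52) FPKM, with a mean of 44.5 ± 2.64 FPKM (SD, n = 3). The lowest and the highest library differed by 1.12-fold. *Tgfb3*, an isoform known for its part in palate and lung development, was at 4.12, 2.91 and 3.996 FPKM in the same order, averaging 3.67 ± 0.666 FPKM (SD, n = 3). *Tgfb2*, an isoform known for its part in heart development, was at 2.30, 1.14 and 1.47 FPKM, averaging 1.64 ± 0.600 FPKM (SD, n = 3). The mean of *Tgfb1* was 12.1-fold that of *Tgfb3* and 27.2-fold that of *Tgfb2*, and its ranges overlapped with neither. *Tgfb1* made up 87.9% of the summed ligand FPKM in S38, 91.1% in S44 and 89.2% in S52, or 89.4% ± 1.61 (SD, n = 3), a share in which the scaling of a library cancels. *Tgfb3* took 7.34% ± 0.843 and *Tgfb2* 3.25% ± 0.963 (SD, n = 3 for each).

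Platelets are a known store of TGF-β1, so the platelet markers are given beside *Tgfb1*. From S38 to S52 these markers were between 7.22-fold (*Gp1bb*) and 87.4-fold (*Pf4*) lower, and from S44 to S52 between 5.40-fold and 75.5-fold lower. *Tgfb1* in S52 lay between its values in the other libraries. Relative to the endothelial gene *Cdh5* within a library, *Tgfb1* was at 5.33% in S38, 4.25% in S44 and 4.96% in S52. *Tgfb1* was highest in S38 as deposited and at a common sum, and highest in S52 with median-ratio scaling, and the part of platelets in its level was not tested. As deposited, *Tgfb2* and *Tgfb3* were lowest in S44 and highest in S38. All 6 mural markers were lowest in S44 too, but 4 of them were highest in S52. S44 was the lowest library for 6 of the 10 genes as deposited, against 28.4% of detected genes. At a common sum *Tgfbr2* and *Smad4* were lowest in S44 as well. The part of mural cells in the low levels of S44 was not tested. *Tgfb2* and *Tgfb3* share 124 and up to 257 exon bases with antisense gene models, and libraries made without strand information cannot separate such reads.

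**Figure D1:**
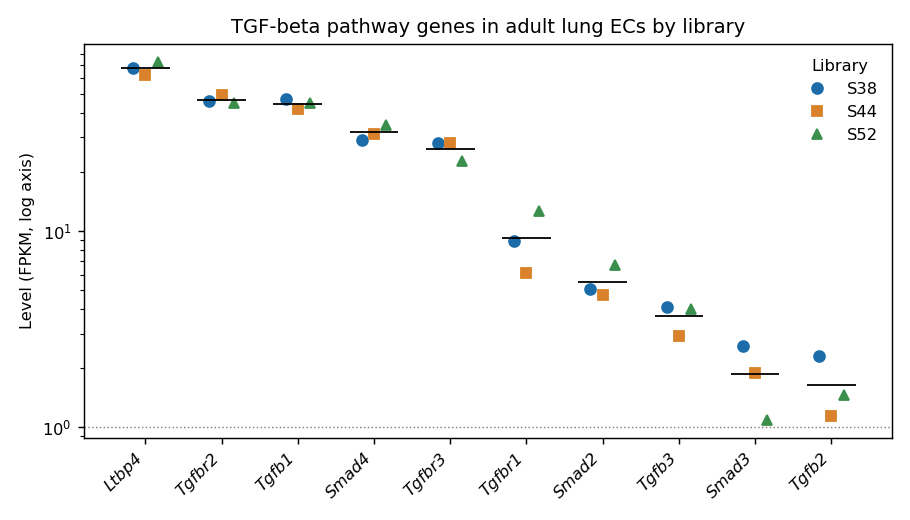
Level in FPKM (vertical log axis) of the 10 TGF-β genes in libraries S38 (circles), S44 (squares) and S52 (triangles), with the mean of the 3 libraries as a bar and 1 FPKM as a dotted line. The 5 genes on the left lie between 22.7 and 72.6 FPKM with little spread, and the 5 on the right lie between 1.09 and 12.6 FPKM with a wider spread.

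*Ltbp4* was the highest of the 10 genes. It encodes a matrix protein that binds latent TGF-β1 and the elastic fibers of the lung, and it was at 67.2 (S38), 62.0 (S44) and 72.6 (S52) FPKM, with a mean of 67.3 ± 5.29 FPKM (SD, n = 3). That mean ranks 1293 of 24346 and lies above 94.7% of genes. In every library it exceeded the ligand it binds, with a ratio of *Ltbp4* to *Tgfb1* of 1.44, 1.49 and 1.61. Among the 4 latent TGF-β binding proteins, *Ltbp4* took 67.3%, 69.5% and 68.3% of the summed FPKM, or 68.4% ± 1.09 (SD, n = 3). *Ltbp1* was at 17.9 FPKM in the mean, *Ltbp2* at 6.95 FPKM and *Ltbp3* at 6.38 FPKM (*Ltbp1* and *Ltbp3* were named after their values were seen). *Ltbp2*, whose product binds fibrillin and not latent TGF-β, was at 4.55, 3.37 and 12.9 FPKM and so was highest in S52. *Ltbp4* and *Tgfb1* lie on the same chromosome, 1600059 bases apart.

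Other genes of latency and activation were looked up as a list of 15, of which 13 were detected. *Itgb1*, a common integrin beta chain, was highest at 343 ± 16.9 FPKM (SD, n = 3). *Thbs1*, whose product thrombospondin-1 can release TGF-β from its latent complex, was at 251, 185 and 95.3 FPKM in the 3 libraries. *Itgb5*, whose product pairs with the alpha-v chain, was at 81.0, 80.7 and 39.5 FPKM. *Itgb3*, the beta chain shared by platelets and ECs, was at 65.5, 50.5 and 3.48 FPKM. These 3 genes were lowest in S52, as were all 7 platelet markers and 64.9% of all detected genes over 2-fold between libraries. *Lrrc32*, which encodes GARP, a cell-surface anchor of latent TGF-β, was at 42.5, 36.3 and 36.9 FPKM, with a highest library 1.17-fold above the lowest. *Itgb6* and *Itgb8*, whose alpha-v integrins activate latent TGF-β1 and TGF-β3, were the 2 genes of the list below 1 FPKM, at means of 0.147 and 0.0744 FPKM. *Itgb8* was listed at 0 in S44. *Lrrc32*, *Itgb6* and *Itgb8* were singled out after their values were seen.

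The type II receptor gene was far above the type I receptor gene. *Tgfbr2* was at 45.9 (S38), 49.0 (S44) and 44.6 (S52) FPKM, with a mean of 46.5 ± 2.25 FPKM (SD, n = 3), and its spread of 4.83% of the mean was the lowest of the 10 genes. *Tgfbr1*, the ALK5 gene, was at 8.87, 6.08 and 12.6 FPKM, averaging 9.17 ± 3.26 FPKM (SD, n = 3). *Tgfbr1* was highest in S52 and lowest in S44, by 2.07-fold. Within a library the ratio of *Tgfbr2* to *Tgfbr1* was 5.18 (S38), 8.06 (S44) and 3.55 (S52), or 5.59 ± 2.28 (SD, n = 3). The ratio was above 1 in each library, and its size differed by 2.27-fold between libraries, whereas *Tgfbr2* itself varied by 1.10-fold. The 6 mural markers had the same lowest library, with medians of 6.11, 4.01 and 9.59 FPKM, and their part in *Tgfbr1* was not tested. *Tgfbr3*, which encodes betaglycan, a co-receptor that presents ligand and TGF-β2 above all, was at 28.0, 27.9 and 22.7 FPKM, averaging 26.2 ± 3.03 FPKM (SD, n = 3). It was above *Tgfbr1* and below *Tgfbr2* in each library.

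The receptor genes *Acvrl1*, *Eng* and *Bmpr2*, which serve bone morphogenetic proteins (BMPs), were above *Tgfbr1*, *Tgfbr2* and *Tgfbr3*. The product of *Acvrl1* can also serve TGF-β in ECs, as said above. *Bmpr1a* and *Bmpr1b* (mean of 0.107 FPKM) were below all 3. *Acvr1*, at 17.3, 15.4 and 17.7 FPKM, lay above *Tgfbr1* and below *Tgfbr3* (*Acvr1* and *Bmpr1b* were named after their values were seen). *Acvrl1*, the ALK1 gene, was at 776 (S38), 828 (S44) and 911 (S52) FPKM, and its ratio to *Tgfbr1* was 87.5, 136 and 72.5. *Eng*, which encodes the co-receptor endoglin, was at 658, 646 and 542 FPKM, and its ratio to *Tgfbr3* was 23.5, 23.2 and 23.9, or 23.5 ± 0.363 (SD, n = 3). *Bmpr2*, a type II receptor for BMPs, was at 160, 157 and 140 FPKM, and its ratio to *Tgfbr2* was 3.27 ± 0.178 (SD, n = 3). Of the 12 other receptors and co-receptors, 9 were detected and *Acvr1c*, a type I receptor for Nodal and activins, was listed at 0 in all 3 libraries. *Acvr1b*, the type I receptor for activins that also signals to Smad2 and Smad3, was at 22.6, 17.4 and 10.8 FPKM. The type II receptor gene *Acvr2b* was at 1.52, 2.33 and 0.324 FPKM, and the BMP type I receptor gene *Bmpr1a* at 3.04, 1.20 and 2.30 FPKM.

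**Figure D2:**
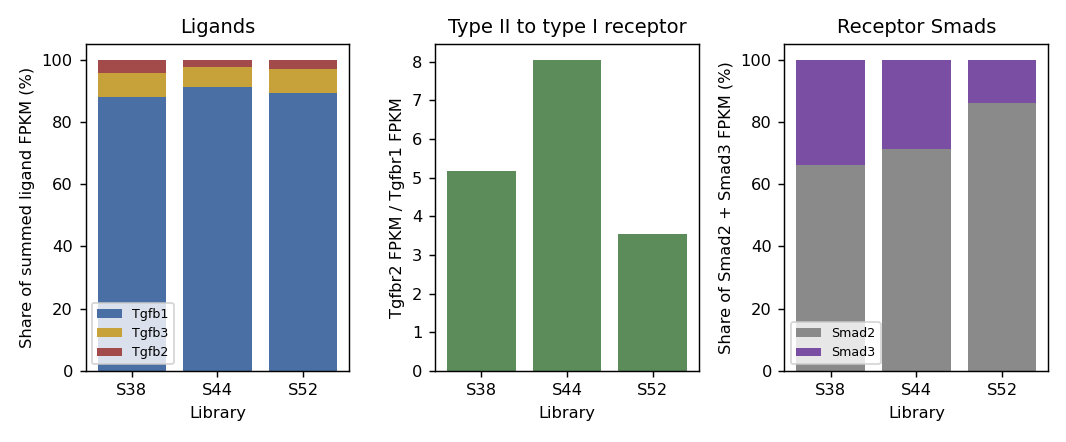
Ratios within libraries S38, S44 and S52: the share (%) of each ligand gene in the summed ligand FPKM (left), the FPKM of *Tgfbr2* divided by that of *Tgfbr1* (middle) and the shares (%) of *Smad2* and *Smad3* in their sum (right). *Tgfb1* takes 87.9% to 91.1% in each library, whereas the receptor ratio runs from 3.55 to 8.06 and the *Smad3* share from 14.0% to 33.8%.

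Among the Smads, the shared partner was well above the receptor-regulated Smads. *Smad4* was at 29.1 (S38), 31.3 (S44) and 34.7 (S52) FPKM, with a mean of 31.7 ± 2.81 FPKM (SD, n = 3). *Smad2* was at 5.07, 4.72 and 6.70 FPKM, averaging 5.50 ± 1.06 FPKM (SD, n = 3). *Smad3*, whose product binds DNA directly, was at 2.59, 1.89 and 1.09 FPKM, averaging 1.86 ± 0.752 FPKM (SD, n = 3). *Smad4* exceeded the sum of *Smad2* and *Smad3* by 3.80-fold, 4.73-fold and 4.46-fold. *Smad2* was above *Smad3* in each library, but the share of *Smad3* in their sum was 33.8% (S38), 28.6% (S44) and 14.0% (S52), or 25.5% ± 10.3 (SD, n = 3). *Smad3* had the widest spread of the 10 genes, 40.5% of its mean, with S38 2.38-fold above S52. Its values stand for an estimated 480, 364 and 185 fragments, and the 95% Poisson intervals were 2.37 to 2.84 FPKM in S38, 1.70 to 2.095 FPKM in S44 and 0.939 to 1.26 FPKM in S52, which do not overlap. These intervals rest on an estimated depth and cover counting error only. *Smad3* ran in the order S38, S44, S52, as did the sums of the platelet, alveolar type 2, airway, leukocyte and fibroblast markers. Single markers differed: 3 of 6 leukocyte, 1 of 7 platelet and 1 of 5 airway markers were highest in S44. Of the 5 fibroblast markers, *Lum* and *Pdgfra* were lowest in S44. The part of these cell types in *Smad3* was not tested.

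Of the Smads of the BMP branch, *Smad1* and *Smad5* were above *Smad2* and *Smad3*, and *Smad9*, at 1.38, 1.15 and 1.09 FPKM, was not. *Smad1* was at 22.5, 18.8 and 11.8 FPKM, *Smad5* at 14.4, 15.8 and 18.2 FPKM, and the sum of *Smad1*, *Smad5* and *Smad9* was 4.99-fold, 5.41-fold and 3.99-fold that of *Smad2* and *Smad3*. The inhibitory Smads, whose products block receptor Smads and are themselves induced by the pathway, were both detected. *Smad6*, the inhibitor of the BMP branch in the main, was at 120 ± 20.2 FPKM (SD, n = 3), and *Smad7*, which also blocks TGF-β receptors, at 16.9 ± 2.72 FPKM (SD, n = 3). *Smad6* was above *Smad7* by 7.40-fold, 8.67-fold and 5.67-fold.

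In the order of their means the 10 genes ran *Ltbp4*, *Tgfbr2*, *Tgfb1*, *Smad4*, *Tgfbr3*, *Tgfbr1*, *Smad2*, *Tgfb3*, *Smad3*, *Tgfb2*, over 41.1-fold in all. Of the 9 neighboring pairs, 6 did not overlap between their libraries. The ranges of *Tgfbr2* and *Tgfb1* overlapped, and *Tgfbr2* was the higher in 1 of 3 libraries. *Tgfbr1* and *Smad2* overlapped as well, though *Tgfbr1* was higher in 3 of 3, and *Smad3* and *Tgfb2* overlapped, with *Smad3* higher in 2 of 3. With 3 libraries an exact sign-flip permutation test of a pair cannot give a p-value below 0.25, so none is reported. *Tgfbr3* and *Smad4* were close, at most 28.0 FPKM for the first and at least 29.1 FPKM for the second.

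Steadiness between libraries went with level among the 10 genes, as it did over all detected genes. *Tgfb2*, *Tgfbr1* and *Smad3* varied over 2-fold between libraries, 3 of 10 genes, against 20.1% of the 11770 detected genes. All 3 belong to the 5 genes with a mean of 1 to 10 FPKM, where 33% of 5501 genes passed 2-fold. The 5 genes at 10 FPKM or above held none, where 8.74% of 6269 genes passed. Each of the 3 rested on 1 pair of libraries: without S38 only *Tgfbr1* remained over 2-fold, without S44 only *Smad3*, and without S52 only *Tgfb2*. In the last, 2.30 FPKM in S38 and 1.14 FPKM in S44 stand for an estimated 429 and 221 fragments.

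S52 was also compared with each of the other libraries over the 10 genes. The difference between S52 and S38 in log2(FPKM + 1) had a median of -0.038 over the 10 genes, from -0.78 (*Smad3*) to 0.46 (*Tgfbr1*), and -0.083 over the 11770 detected genes. Against S44 the median was 0.17, from -0.47 (*Smad3*) to 0.94 (*Tgfbr1*), and -0.062 over detected genes. The 7 platelet markers had medians of -3.93 and -3.82 on the same scale, and the 10 endothelial markers 0.092 and -0.056. S52 was the lowest library for 3 of the 10 genes and for 46.3% of detected genes, S44 for 6 and for 28.4%, and S38 for 1 and for 25.4%. S38 was the highest library for 5 of the 10 and for 37.1% of detected genes, S44 for 1 and for 28.9%, and S52 for 4 and for 33.9%.

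**Figure D3:**
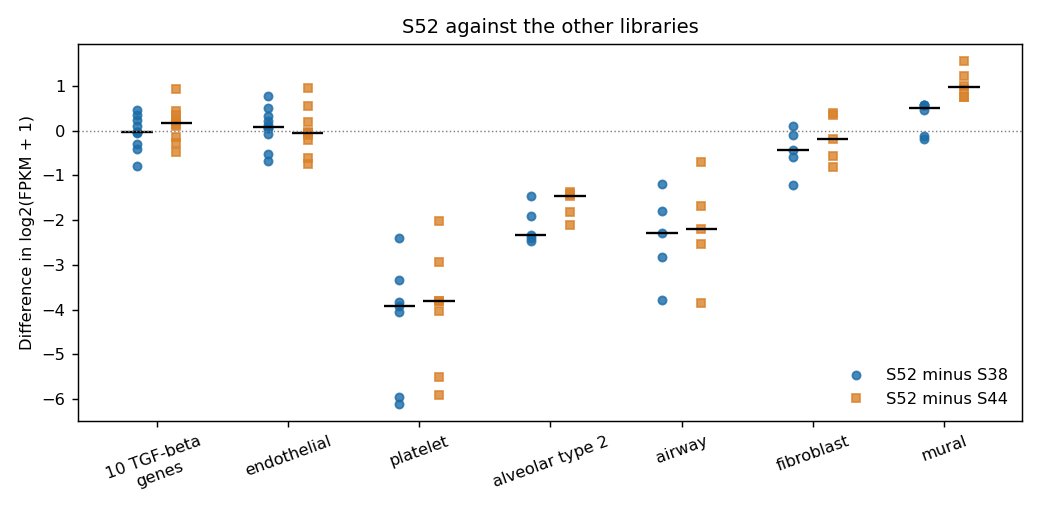
Difference in log2(FPKM + 1) of S52 minus S38 (circles) and S52 minus S44 (squares) for the 10 TGF-β genes and for marker genes of 6 cell types, 1 point per gene, with the median as a bar. The 10 genes lie between -0.78 and 0.94, whereas every platelet marker lies below -2.

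Regulators between receptor and nucleus were broadly present. All 22 adaptors, ubiquitin ligases, deubiquitinases and co-repressors of the list were detected, against 48.3% of all genes, with a median of 14.8 FPKM. *Fkbp1a*, whose product FKBP12 keeps type I receptors inactive until ligand binds, was at 566, 589 and 577 FPKM, averaging 577 ± 11.7 FPKM (SD, n = 3). *Smurf2*, a ubiquitin ligase for receptors and Smads, was at 69.7 ± 4.78 FPKM and *Ppm1a*, a Smad phosphatase, at 50.9 ± 6.59 FPKM (SD, n = 3 for each). *Strap*, which encodes a receptor-binding protein, was at 43.2 ± 3.47 FPKM (SD, n = 3). *Tgif2*, a co-repressor of Smad2 and Smad3, was the 1 gene of the list over 2-fold, against 20.1% of all detected genes. It was at 9.35, 9.29 and 20.99 FPKM, highest in S52. All 6 genes of the non-Smad branch were detected, from *Xiap* at 47.4 FPKM to *Traf4* at 1.88 FPKM in the mean (*Traf4* named after its values were seen), with *Map3k7*, the TAK1 kinase gene, at 12.3 ± 1.78 FPKM (SD, n = 3).

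Other ligands listed as using Smad2 and Smad3, and their antagonists, were mostly below 1 FPKM, with 2 of the 13 listed detected. The list holds no BMP genes, which were not looked up. *Gdf15*, a stress-induced cytokine known to act through another receptor, GFRAL, was at 6.55, 10.9 and 5.55 FPKM. *Inhbb*, which encodes an activin chain, was at 3.12, 4.32 and 1.67 FPKM. *Inhba*, *Mstn* and *Lefty2* were listed at 0 in all 3 libraries. *Lefty1*, an antagonist of Nodal, lay at the threshold with a mean of 0.999 FPKM and values of 0.727, 1.86 and 0.406 FPKM.

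Known targets of the pathway were all detected, 22 of 22 against 48.3% of all genes, with a median of 23.8 FPKM. The list shares *Acta2* with the mural markers and *Col1a1* with the fibroblast markers, and the part of such cells in the target levels was not tested. Levels in cells of 1 condition do not measure a response. *Cdkn1a*, a cell cycle inhibitor, was at 504, 686 and 642 FPKM, *Cyr61*, a matricellular protein gene, at 196 ± 11.2 FPKM (SD, n = 3), and *Col4a1*, a basement membrane collagen, at 206 ± 31.0 FPKM (SD, n = 3). *Tsc22d1*, first described as a TGF-β-stimulated transcript, was at 608, 581 and 205 FPKM. *Cdkn2b*, an inhibitor of cell cycle kinases, was at 18.2, 22.2 and 8.71 FPKM, and *Snai1*, a transcription factor of mesenchymal change, ran the other way at 2.41, 3.09 and 9.77 FPKM. With *Thbs1* and *Ltbp2* these made 5 of 22 targets over 2-fold, against 20.1% of all detected genes. Of the 5, *Tsc22d1*, *Cdkn2b* and *Thbs1* were lowest and *Snai1* and *Ltbp2* highest in S52. S52 was lowest for 64.9% of all detected genes over 2-fold.

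The elastic fiber list holds the matrix partners of the *Ltbp4* product, and 13 of its 14 genes were detected. *Mfap2* was highest at 105 ± 8.58 FPKM, followed by *Mfap4* at 80.3 ± 11.1 FPKM, both microfibril-associated proteins, and by *Eln*, the elastin gene, at 27.6 ± 6.16 FPKM (SD, n = 3 for each). *Efemp2*, whose product fibulin-4 is needed for elastic fiber assembly, was at 22.1 ± 2.73 FPKM (SD, n = 3). *Fbn2*, a fibrillin known from development, was listed at 0 in all 3 libraries. *Fbln1*, *Efemp1*, *Mfap5* and *Emilin1* were over 2-fold between libraries and lowest in S52. They are 4 of the 13 detected genes of the list, against 20.1% of all detected genes over 2-fold. Over all of those, S52 was lowest for 64.9%. *Mfap5* was at 7.60, 8.57 and 1.90 FPKM, *Efemp1* at 15.4, 11.1 and 5.62 FPKM, *Fbln1* at 6.51, 5.22 and 2.75 FPKM, and *Emilin1* at 22.3, 25.7 and 12.3 FPKM. Of the 5 fibroblast markers 3 were lowest in S52, among them *Dcn* at 47.4, 35.5 and 19.8 FPKM, whereas *Lum* and *Pdgfra* were lowest in S44. The part of fibroblasts in these values was not tested. *Ltbp4* itself was highest in S52, though in S38 once each library was scaled to a common sum, as was *Smad4*.

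**Figure D4:**
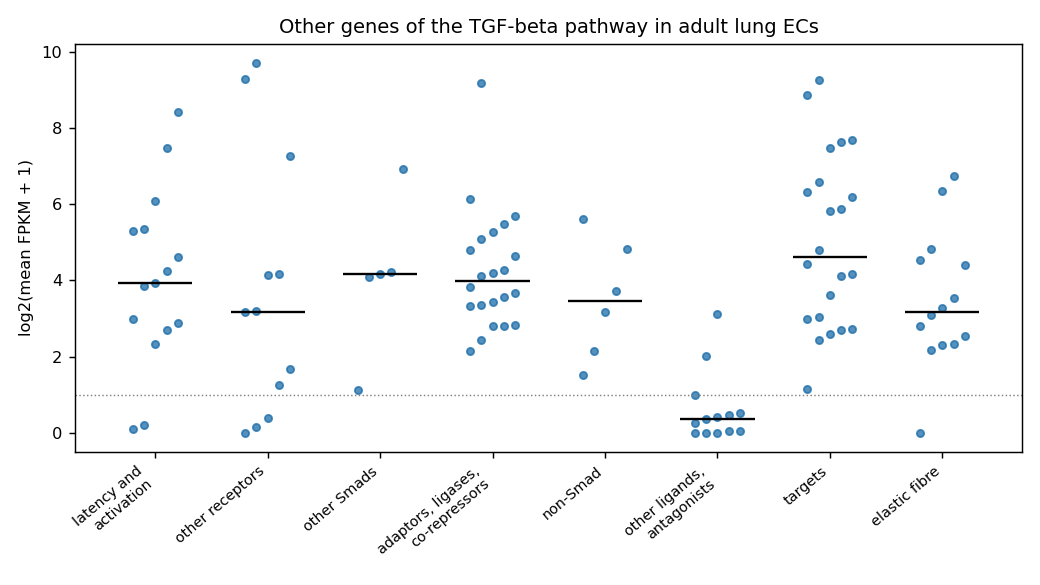
Mean level over the 3 libraries as log2(mean FPKM + 1) for the genes of 8 lists of the TGF-β pathway, 1 point per gene, with the median as a bar and 1 FPKM as a dotted line. Of the other ligands and antagonists 11 of 13 lie below the line, against at most 3 genes of any other list.

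Counted as 103 distinct genes, 86 were detected (83.5%), and 16 of these 86 (18.6%) were over 2-fold between libraries, 12 of them with S52 lowest. Over all genes of the table the shares were 48.3% and 20.1%, and S52 was lowest for 64.9% of the 2363 detected genes over 2-fold. Of the 3 TGF-β genes over 2-fold, *Smad3* alone was lowest in S52. In GENCODE M21 (GRCm38) *Tgfb1* lies on chromosome 7 (plus strand, 25687002 to 25705077) and *Ltbp4* on its minus strand from 27305136 to 27337692. *Tgfb2* lies on the minus strand of chromosome 1 from 186622792 to 186705989, and *Tgfb3* on that of chromosome 12 from 86056745 to 86079041. *Tgfbr1* lies on chromosome 4 (plus strand, 47353222 to 47414931). *Tgfbr2*, from 116084293 to 116175360, and *Smad3*, from 63646767 to 63757994, both lie on the minus strand of chromosome 9. *Tgfbr3* lies on the minus strand of chromosome 5 from 107106570 to 107289629, and *Smad2* and *Smad4* on chromosome 18.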

How the data were processed

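Bulk RNA-seq of 3 adult lung EC libraries was analysed. Poly-A selected, non-stranded libraries were read as pairs of 51 bp. The table deposited by the authors holds an FPKM for each gene symbol (mm10). Per the labels, the submitters' processing notes name bcl2fastq 2.17, FastQC 0.11.5, Trimmomatic 0.36, TopHat2 2.1.0 and Cufflinks 2.2.1, without a role for each. The study's methods describe a different pipeline for counts, so the annotation and the tool behind the FPKM values are not given in the sources used here. All 3 sample columns were used (0 left out).

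Values were used as deposited. Means, SDs, ratios and shares are on the FPKM scale, and differences between libraries used log2(FPKM + 1), which understates changes of low genes. No count model was fitted. With 1 condition there was no comparison of conditions to test, and pairs of genes were not tested. The columns sum to 1153890 (S38), 1603596 (S44) and 1419351 (S52) FPKM. Depth was estimated from steps of low FPKM values in 7077 genes for which GENCODE M21 lists 1 basic transcript between 800 and 4000 bp. This method was set once the values had been seen, and it gave 37400000, 39100000 and 34900000 fragments, with 76.5% to 79.7% of the low values within 0.15 of a whole fragment. The estimate used 238 (S38), 316 (S44) and 162 (S52) low values. On 3 simulated libraries its error was at most 0.195%. Those libraries were built with the same transcript lengths as the estimate, so error from another annotation is not covered. For a gene of 2000 bp listed at 0, these depths leave room for a level of 0.0431 (S38), 0.0419 (S44) or 0.0483 (S52) FPKM, taken as 3 fragments and covering counting error alone. Fragments behind a gene used its longest coding transcript, and Poisson intervals were set at 95%.

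The named genes are the 10 genes, the 4 highest of each pathway list, genes over 2-fold with a mean of at least 1 FPKM, and genes at 0 throughout. The genes and lists were chosen with earlier results of these data known. Promoter windows and motifs were chosen after the values were seen and come from RefSeq (GRCm38.p6). Alternatives were 3 scalings, other thresholds and pseudocounts, and leaving out each library. Analyses used Python 3.11.15, pandas 2.3.3, scipy 1.17.1 and matplotlib 3.10.9.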

Additional observations from a re-analysis of the deposited data

How the results depend on the processing

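No paired analysis was possible because all libraries belong to 1 group. The number of TGF-β genes at or above the threshold was 5 of 10 at 10 FPKM, and that of the 103 pathway genes was 53 at 10 FPKM. The number of TGF-β genes over 2-fold between libraries was 1 without S38, 1 without S44 and 1 without S52, by construction of a range over fewer libraries, and it was 2 with median-ratio scaling, where *Tgfb2* was at 1.99-fold. Of 47 summary values recomputed, the other 42 stayed within 1.5 times the count or within 1 SD. For shares and ratios without 1 library this was certain in advance, since dropping it cannot shift the mean by 1 SD. For the median differences of S52 the SD was that between genes (0.37 against S38 and 0.39 against S44), which is a wide limit. Scaling the libraries to a common sum moved 7 of the 10 mean levels by more than 1 SD, *Tgfb1* to 32.7 and *Ltbp4* to 49.4, and shifted the median of detected genes between S52 and S38 to -0.34 on the log2 scale. Under that scaling *Tgfb1* in S52 (31.7) still lay between S44 (25.9) and S38 (40.5). No level moved by more than 1 SD in the 50 recomputations under other settings. Where a library was left out this was again certain in advance, so only the other scalings could have moved a level. Ratios within a library do not depend on scaling. Depth limits statements on genes near 0.1 FPKM, such as *Itgb8*.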

Other observations

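The genes nearest in level to the 3 highest TGF-β genes over the 3 libraries were found by the largest absolute difference in log2(FPKM + 1) in any library. For *Ltbp4* they were *Zfp207* (0.057), *Ifnar2* (0.071) and *Camk1* (0.071). For *Tgfbr2* they were *Alas1* (0.044), *Chp1* (0.044) and *Zfand3* (0.051). For *Tgfb1* they were *Anapc2* (0.050), *Strap* (0.066), which is also in the list of pathway regulators, and *Rgs3* (0.067). A likeness over 3 libraries describes levels only.

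Markers of lymphatic ECs were looked up because podoplanin-positive cells were removed by the sort. *Prox1*, the defining transcription factor, was at 0.132 (S38), 0.173 (S44) and 0.598 (S52) FPKM, and *Pdpn* at 2.39, 1.84 and 3.09 FPKM. *Lyve1*, a hyaluronan receptor that lung capillaries also express, was at 539, 597 and 390 FPKM, and *Flt4*, the VEGF-C receptor gene, at 23.7, 23.8 and 19.8 FPKM.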
